A study of Mus musculus with 8 samples.

Results

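The respiratory chain genes described here are 82 nuclear genes whose symbols name subunits of complexes I to V of the inner mitochondrial membrane. They were chosen by symbol alone (Ndufa, Ndufb, Ndufc, Ndufs and Ndufv with a number, Sdha to Sdhd, and symbols starting with Uqcr, Cox4 to Cox8 or Atp5), with no measured value, from the 21765 genes of the deposited table. By symbol 36 belong to complex I, 4 to complex II, 8 to complex III, 17 to complex IV and 17 to complex V. RNA on polysomes of the main olfactory epithelium of mice was sequenced in 8 libraries, 2 in each of 4 groups. Wild-type (WT) mice were Mex3a flox/flox or Mex3a flox/+ without Cre, and conditional knockout (cKO) mice were Mex3a flox/flox with Cre, so floxed Mex3a was shared by both genotypes. Tissue was treated with 100 µg/mL cycloheximide, which holds ribosomes on their mRNA, and about 42 fractions of 350 µL were taken from each sucrose gradient. Early polysomes pooled 50 µL from each of fractions 27 to 34, and late, denser polysomes pooled fractions 35 to 42. The early and late library of a genotype and number carry the same lysate name, which gives 4 lysates. Neither age nor sex is given in the labels, nor whether each lysate came from separate or pooled animals, so p-values measure the spread between these libraries.

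The respiratory chain passes electrons from NADH (complex I) and succinate (complex II) through complex III to oxygen at complex IV. Complexes I, III and IV pump protons as they do so, and complex V, the ATP synthase, makes ATP as the protons flow back. All subunits of complex II and most of those of the other complexes are encoded in the nucleus, made in the cytosol and imported into mitochondria, while a core of hydrophobic subunits is encoded in mitochondrial DNA. A gradient sorts mRNAs by the number of ribosomes they carry, and an mRNA with a longer coding region has room for more ribosomes. The olfactory epithelium holds sensory neurons, supporting cells, glands and basal stem cells, all of which make these subunits.

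Values are transcripts per 1000000 (TPM), scaled between libraries, and changes are differences of log2(scaled TPM + 1), tested with limma and called at a Benjamini-Hochberg adjusted p under 0.05 over 16097 genes. Whole reads inferred from the steps of the TPM values totalled from 7783820 (cKO late replicate 2) to 12782052 in a library. Mex3a was listed at between 88.9 and 119 scaled TPM in the 4 WT libraries and between 11.0 and 21.3 in the 4 cKO libraries. WT early replicate 2, whose genotype tag is that of the cKO group against its title, stood with the WT libraries. No mitochondrially encoded gene is in the table. TPM gives each gene's share of a library, and the amount of RNA in the early and late pools is not known, so a change below is relative to the other mRNAs of the same pool. Marker genes of mature olfactory neurons (10 genes) summed to between 10626 and 13044 scaled TPM in early and between 7278 and 8717 in late libraries, and those of sustentacular (supporting) cells (7 genes) to between 6631 and 7494 in early and between 9135 and 11244.5 in late libraries. Of the neuron markers 3 fell from early to late (Omp, Stoml3 and Gng13, which hold most of the sum) and the other 7 rose, with a median change of 0.48, so that the sum and most of the list moved in opposite directions, and of the sustentacular markers 6 rose and 1 fell. The part of cell type in the results below was not tested.

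Of the 82 genes, 79 passed the filter of a mean deposited TPM of at least 1. Cox8c, a testis form, and Ndufs5, a small complex I subunit, were listed at 0 in every library, and Cox6a2, a heart and muscle form, reached at most 0.822 scaled TPM. Ndufs5 shares 41.2% of its 50-base stretches with 1 other gene, BC002163, which was listed at between 0.72 and 46.3 scaled TPM. The tested genes had a median level of 228 scaled TPM, against 23.0 over all genes tested, and 74 of them lay above that overall median. Together the 82 genes made up between 2.67% and 2.84% of the TPM of the early libraries and between 1.34% and 1.62% of that of the late libraries.

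Most respiratory chain mRNAs were lower in late than in early polysomes, while most of those with 1000 or more coding bases were higher there. Averaged over genotypes, 67 genes fell and 9 rose from early to late, and the percentage of all tested genes called was 68.9% (34.6% lower and 34.3% higher). The median change of the tested members was -1.34, against -0.01 over all genes tested. Among those that rose were Sdha, Atp5a1, Ndufs1, Ndufv1, Uqcrc1, Uqcrc2, Atp5b and Ndufa9. The largest falls were those of Atp5k and Cox6b1. Cox4i2, Uqcrfs1 and Ndufa10 were not called. Levels in the 4 early libraries did not overlap those in the 4 late libraries for 74 of the 79 genes, against 62.5% of all tested genes.

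The direction was the same in nearly every lysate. In all 4 lysates 66 genes were lower and 9 were higher in late polysomes, a count that was not made over all tested genes. The median change over the members was -1.08 and -1.41 in WT lysates 1 and 2, and -1.20 and -1.60 in cKO lysates 1 and 2 (mean -1.32 ± 0.23, SD, n = 4). In the 2 WT lysates alone 66 genes fell and 8 rose (54.8% of all tested genes were called, 27.7% lower and 27.1% higher), and in the 2 cKO lysates 65 fell and 9 rose (58.1% called, 29.2% lower and 28.9% higher). The lysates numbered 2 gave the larger falls in both genotypes.

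**Figure D1:**
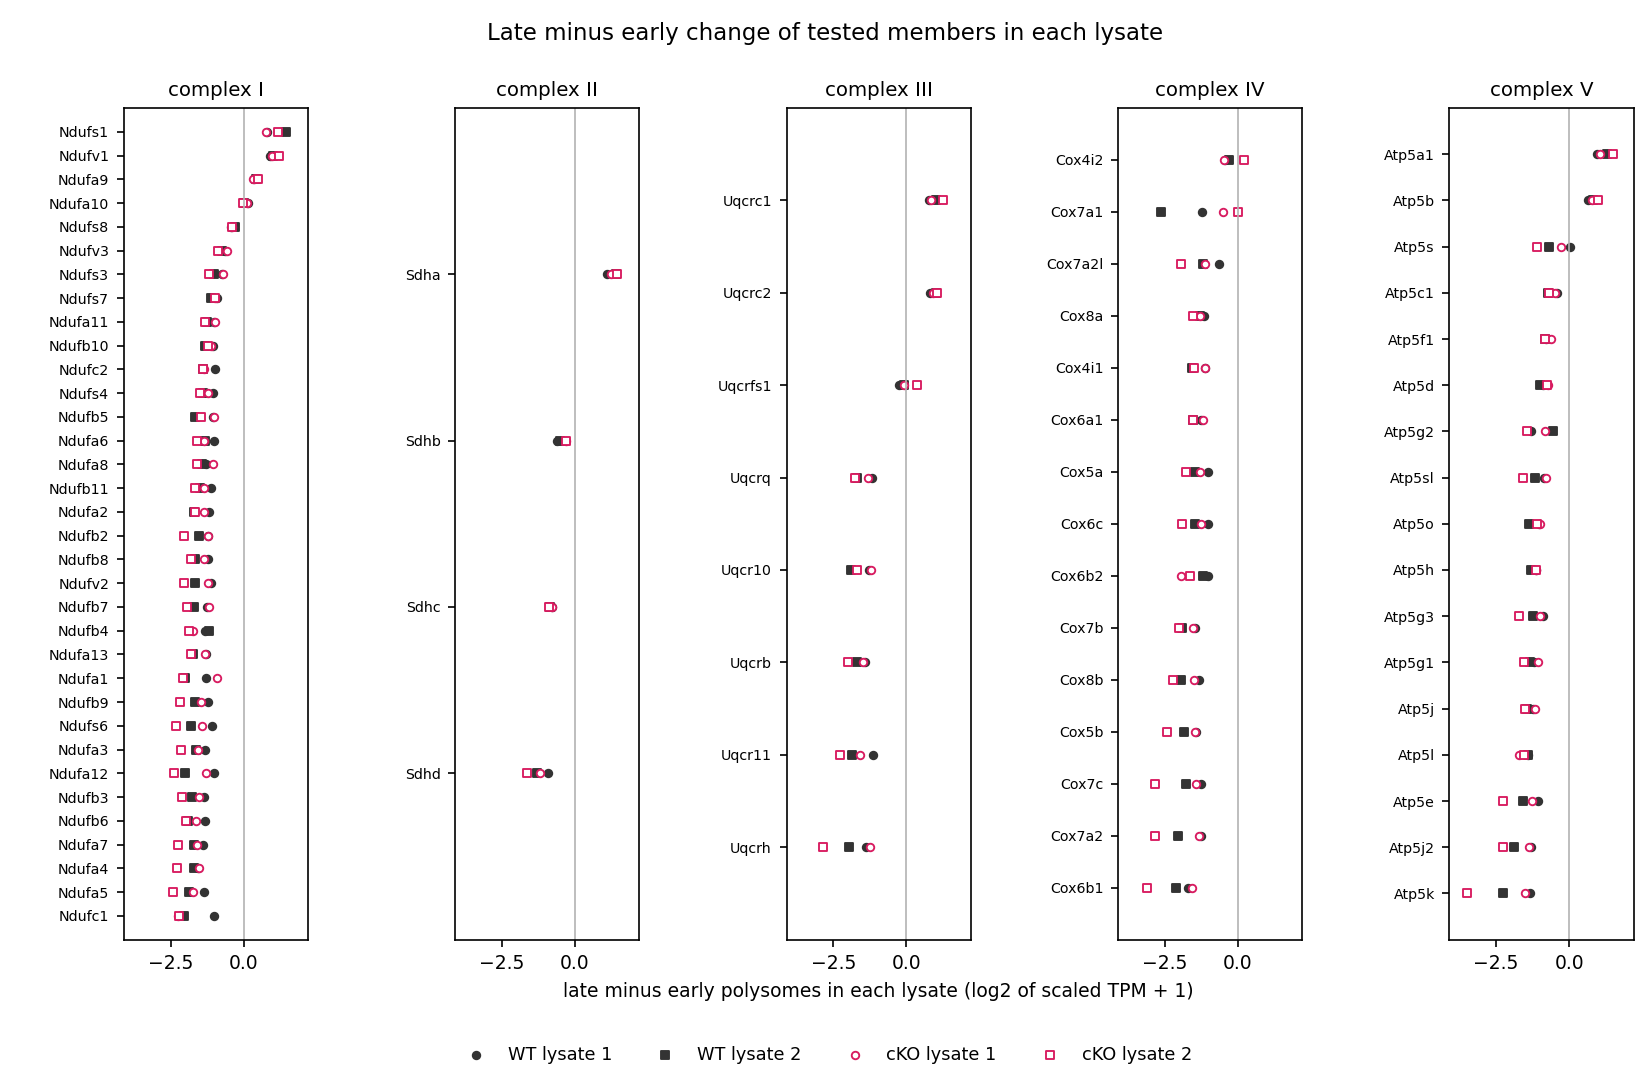
Change from early to late polysomes (log2 of scaled TPM + 1) on the horizontal axis for 78 of the 79 tested genes, by complex, with 1 point per lysate (filled: WT, open: cKO, circles: lysate 1, squares: lysate 2). Most rows lie left of 0 in all 4 lysates, and the genes at the top of complexes I, II, III and V lie right of 0.

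The change followed the length of the coding region, taken from GENCODE M21 on the GRCm38 (mm10) genome. All 21 tested members with under 300 coding bases fell, with a median change of -1.71. Of the 36 with 300 to under 600 coding bases, 35 fell (median -1.36) and Cox4i2 was not called. Of the 11 with 600 to under 1000 coding bases, 10 fell (median -0.77) and Uqcrfs1 was not called. Of the 11 with 1000 or more, 9 rose, Ndufa10 was not called and Ndufv3 fell, with a median of 0.94. Across the 79 genes the change and the coding length had a Spearman rho of 0.80, and the change and the mean level one of -0.08. These are descriptions over genes measured in the same 8 libraries.

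The same order held among the other genes of each length, with a smaller spread between the classes. The medians of non-member genes were -1.34 under 300 coding bases (275 genes), -1.0 from 300 to under 600 (1531 genes), -0.35 from 600 to under 1000 (3539 genes) and 0.31 at 1000 or more (9709 genes). Of the other genes with under 300 coding bases 94.5% fell, of those with 300 to under 600 88.8% fell, and of those with 600 to under 1000 48.0% fell and 13.4% rose, so the counts of members that fell in the 2 shortest classes were near those of other genes as short. In each class the members' median stood further from 0 than that of the other genes, on the same side. Of the other genes with 1000 or more coding bases 51.4% rose and 17.6% fell. After the median of the 200 non-member genes nearest in coding length was taken off, the members' median change was -0.30, with 60 of 79 below their neighbours. The values left ranged from -1.05 for Ndufv2 to 0.94 for Sdha.

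**Figure D2:**
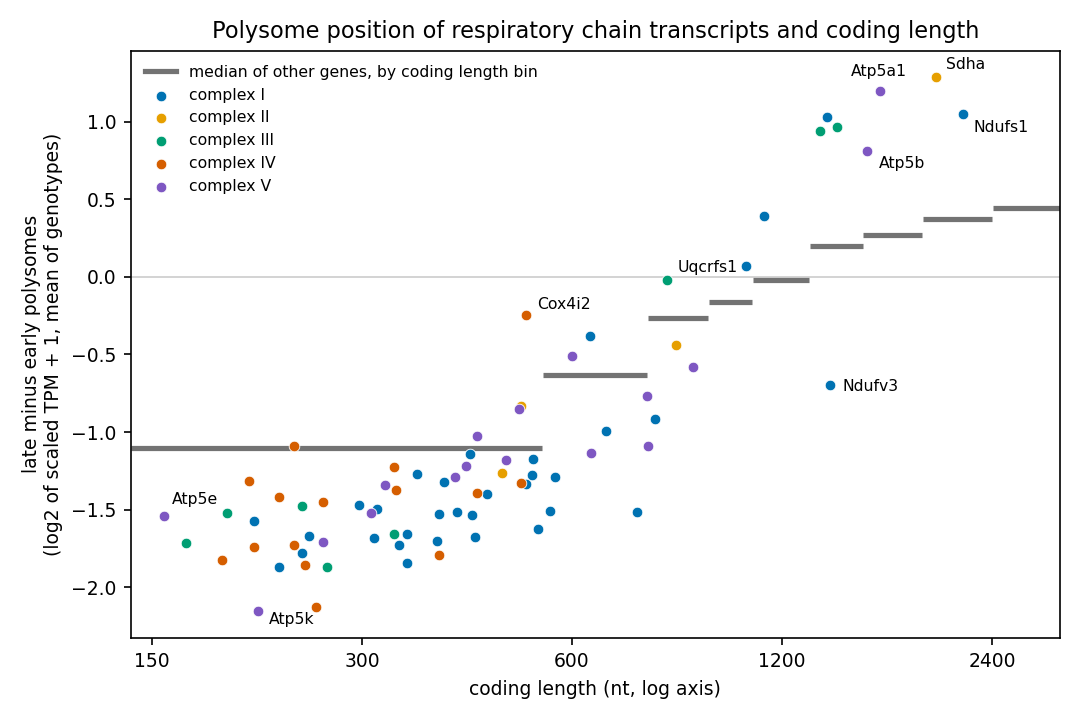
Mean change from early to late polysomes (log2 of scaled TPM + 1) against coding length in bases on a log axis, 1 point per gene (78 of the 79 tested), coloured by complex. Grey bars are medians of non-member genes in bins of coding length, and the members run from -2.15 (Atp5k) to 1.28 (Sdha) around them, with Ndufv3 low for its annotated length.

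The coding sequences of the smallest subunits show how short these messages are. The sequences below are of Atp5e (chr2:174461072-174464105, minus strand), the epsilon subunit of the F1 head of ATP synthase, Uqcr11 (chr10:80402997-80406830, minus strand), a small subunit of complex III, and Cox7c (chr13:86044816-86046904, minus strand), a small membrane subunit of complex IV. They hold 159, 171 and 192 bases with the stop codon and are given 5′ to 3′ from GENCODE M21 transcripts on GRCm38, with the start and stop codons in capitals.
Atp5e: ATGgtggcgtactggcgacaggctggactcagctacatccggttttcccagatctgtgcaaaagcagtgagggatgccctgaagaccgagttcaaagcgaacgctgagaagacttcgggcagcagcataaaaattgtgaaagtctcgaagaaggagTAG
Uqcr11: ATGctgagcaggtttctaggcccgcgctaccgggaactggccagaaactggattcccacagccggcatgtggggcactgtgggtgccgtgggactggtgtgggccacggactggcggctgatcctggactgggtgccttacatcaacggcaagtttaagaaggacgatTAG
Cox7c: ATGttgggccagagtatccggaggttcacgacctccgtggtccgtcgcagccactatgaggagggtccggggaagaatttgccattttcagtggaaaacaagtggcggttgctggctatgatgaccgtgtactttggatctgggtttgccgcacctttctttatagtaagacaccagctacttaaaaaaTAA

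All of these short messages were lower in late polysomes in each of the 4 lysates. Atp5e was listed at 238 and 221 scaled TPM (WT) and 275 and 275 (cKO) in early polysomes, and 113 and 73.5 (WT) and 114 and 56.5 (cKO) in late polysomes. Its change was -1.54 ± 0.21 (SE, adjusted p = 0.000269, limma). Uqcr11 changed by -1.71 ± 0.17 and Cox7c by -1.83 ± 0.22, and in both the level of cKO late replicate 2 was the lowest of the 8. Cox7c shares 53.0% of its 50-base stretches with other genes, first among them Gm10012, so its reads may be split between copies.

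Ndufv3 was the exception among long members. It encodes a small accessory subunit of the NADH-oxidising arm of complex I, and its longest annotated coding region has 1404 bases. Its levels were 212, 196, 186 and 193 scaled TPM in the early libraries (WT 1 and 2, then cKO 1 and 2) and 136, 118, 126 and 106 in the late ones, with the late libraries below all early ones. The change was -0.70 ± 0.08 (adjusted p = 0.00013, limma), 0.86 below that of its neighbours in coding length. GENCODE also holds shorter forms, including one of 312 coding bases that lacks a stretch of 1092 bases, and the deposited table gives a single value per gene, so the forms cannot be told apart. The part of the short form in the fall of Ndufv3 was not tested. Ndufv3 lies at chr17:31520115-31531331 (plus strand, GRCm38). The 120 bases of the short form around the join left by the missing stretch are given 5′ to 3′. They run from base 114 to base 233 of its coding region, with the 6 bases around the join after base 173 in capitals.
Ndufv3 short form: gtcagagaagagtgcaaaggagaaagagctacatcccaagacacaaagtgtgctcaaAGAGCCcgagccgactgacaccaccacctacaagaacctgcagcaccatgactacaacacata

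Complex I oxidises NADH, and of its 35 tested genes 30 fell, 4 rose and Ndufa10 was not called. Its 7 nuclear core subunits, which carry the flavin and the iron-sulfur clusters, were divided between higher and lower levels in late polysomes. Ndufs1, the largest of them and holder of several iron-sulfur clusters, stood at 62.7 and 43.8 scaled TPM in the early libraries of WT and 58.3 and 39.2 in those of cKO, against 111 and 121 (WT) and 101 and 89.7 (cKO) in late polysomes. All late libraries were above all early ones, a change of 1.05 ± 0.15 (adjusted p = 0.0003, limma). Ndufv1, which binds NADH and flavin, changed by 1.03 ± 0.10. Its direct partner Ndufv2, which holds another iron-sulfur cluster, went the other way, from 300.4 and 345 (WT) and 291 and 333 (cKO) in early to 138 and 108 (WT) and 125 and 79.6 (cKO) in late libraries. That was a change of -1.51 ± 0.15 (adjusted p = 4.86e-05, limma).

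Changes of other core subunits lay between these. Ndufs3, Ndufs7 and Ndufs8, all core subunits of the matrix arm, changed by -0.91, -0.996 and -0.38. The summed level of the 7 core genes was 1302 ± 6.17 scaled TPM (SD, n = 4) in early and 1102 ± 38.8 in late libraries.

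Of the 28 tested complex I genes outside the core, 26 fell and Ndufa9 rose. The most abundant was Ndufb10, an accessory subunit of the membrane arm, at 647 and 716 scaled TPM in the early libraries of WT and 672 and 733 in those of cKO, against 313 and 284 (WT) and 313 and 314 (cKO) in late polysomes. Ndufa4, named for complex I but known as a subunit of complex IV, stood at 521 and 616 (WT) and 563 and 693 (cKO) in early polysomes, and 174 and 188 (WT) and 193 and 142 (cKO) in late polysomes. Late libraries were below early ones for both genes, with changes of -1.18 ± 0.08 and -1.78 ± 0.12. The largest fall of the complex was that of Ndufc1, a small membrane-arm subunit, which went from 268 and 281 scaled TPM (WT) and 329 and 239 (cKO) in early to 133 and 67.2 (WT) and 69.3 and 51.3 (cKO) in late libraries, a change of -1.87 ± 0.21. Ndufa9, an accessory subunit with a longer coding region, changed by 0.39 ± 0.07. Summed over all 28 tested and 1 untested genes, these accessory members had 2.54 times the level in early that they had in late libraries.

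Complex II, succinate dehydrogenase, has 4 subunits, and its mRNAs ran in opposite directions. Sdha, the flavin subunit that oxidises succinate, was at 146, 119.5, 128 and 105 scaled TPM in the early libraries (WT 1 and 2, then cKO 1 and 2) and 310.0, 317, 300.3 and 286 in the late ones. Its change of 1.28 ± 0.09 (adjusted p = 2.03e-05, limma) was the largest rise among the members. Sdhd, a small membrane anchor, was at 187 and 209.8 in the early libraries of WT and 205 and 213 in those of cKO, against 97.1 and 84.8 (WT) and 90.0 and 67.3 (cKO) in late polysomes, a change of -1.27 ± 0.10. The ratio of Sdha to Sdhd levels therefore went from between 0.491 and 0.783 in the early to between 3.19 and 4.25 in the late libraries. Sdhc, the other anchor, was at 268 and 311 (WT) and 296 and 314 (cKO) in early polysomes, and 156 and 171 (WT) and 171 and 168 (cKO) in late polysomes, a change of -0.83 ± 0.08.

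Sdhb, the iron-sulfur subunit, showed a smaller fall that depended on the scaling. It was at 422 and 407 scaled TPM (WT) and 369 and 362 (cKO) in early polysomes, and 275 and 282 (WT) and 296 and 296 (cKO) in late polysomes. The average change was -0.44 ± 0.06 (adjusted p = 0.000384, limma), and with quantile normalization it was -0.13 (adjusted p = 0.134). The summed complex II level differed least between pools, at 1016 ± 24.3 in early and 841 ± 18.6 in late libraries (SD, n = 4).

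Complex III passes electrons from ubiquinol to cytochrome c, and 5 of its 8 members fell and 2 rose. Uqcrc1, a large core protein without a redox centre, stood at 216, 194, 212 and 179 scaled TPM in the early libraries (WT 1 and 2, then cKO 1 and 2) and 370.2, 388, 379 and 428 in the late ones, a change of 0.97 ± 0.09. Uqcrc2, its partner core protein, changed by 0.94 ± 0.08. Uqcrfs1, the iron-sulfur subunit that takes electrons from ubiquinol, was at 242 and 234 in the early libraries of WT and 231 and 211 in those of cKO, against 202 and 219 (WT) and 218 and 270.4 (cKO) in late polysomes. Its early and late libraries overlapped, and the change of -0.02 ± 0.09 was not called (adjusted p = 0.843, limma). Its sign turned in 5 of the 17 alternative settings.

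The small subunits of complex III all fell. Uqcrq, a small membrane subunit, was the most abundant of the complex, at 794 and 816 scaled TPM (WT) and 911 and 837 (cKO) in early polysomes, and 353 and 253 (WT) and 366 and 248 (cKO) in late polysomes. Uqcrh, the acidic hinge protein that touches cytochrome c, was at 690.1, 879.5, 667 and 1017 in the early libraries (WT 1 and 2, then cKO 1 and 2) and 266, 224, 278 and 139 in the late ones. Both genes were lower in every late library than in any early one, with changes of -1.48 ± 0.15 and -1.87 ± 0.23. Uqcrb and Uqcr10 changed by -1.66 and -1.52.

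**Figure D3:**
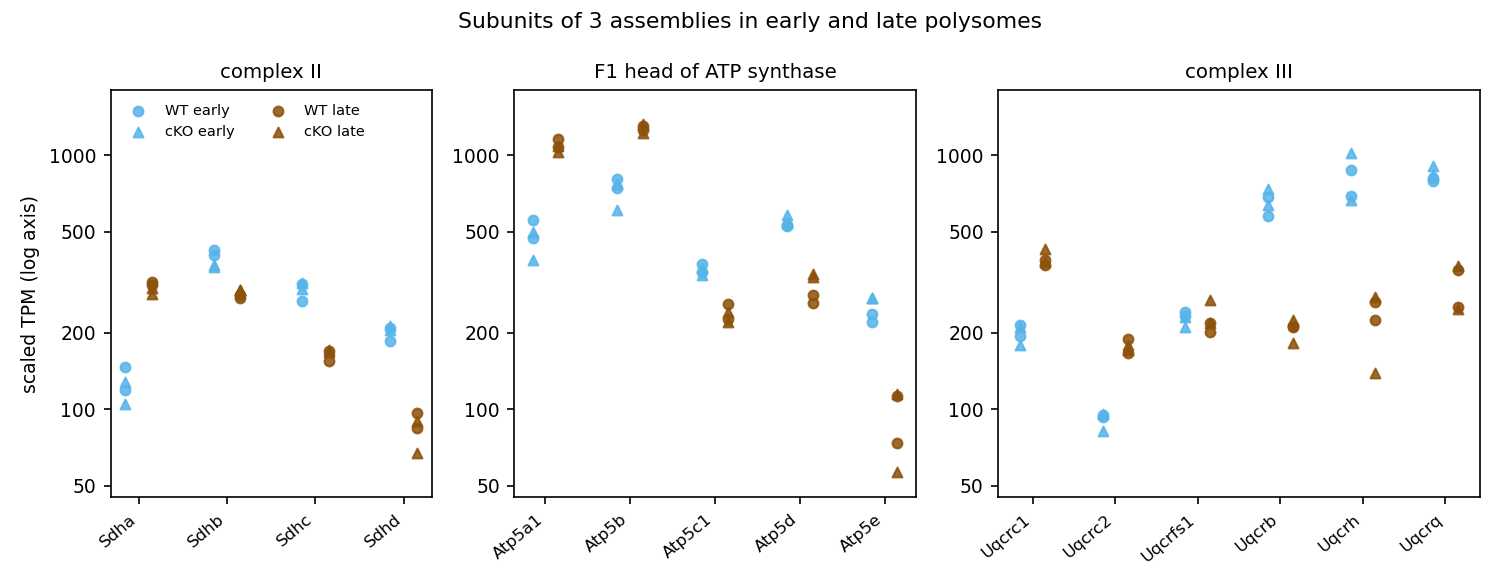
Level of single subunits of complex II, of the F1 head of ATP synthase and of complex III in each library (scaled TPM, log axis), early libraries in blue and late ones in brown, circles for WT and triangles for cKO. Sdha, Atp5a1, Atp5b, Uqcrc1 and Uqcrc2 are higher in the late libraries, Uqcrfs1 overlaps, and the other subunits are lower.

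Complex IV, cytochrome c oxidase, reduces oxygen, and its catalytic subunits are mitochondrially encoded. Its nuclear members are short, with at most 516 coding bases, and 14 of the 15 tested fell and none rose. Cox6c, a small membrane subunit, was listed at 1301 and 1361 scaled TPM in the early libraries of WT and 1446 and 1382 in those of cKO, against 642 and 489 (WT) and 605 and 365 (cKO) in late polysomes, a change of -1.42 ± 0.16. Cox5b, the zinc-binding subunit, was at 1297 and 1360.0 (WT) and 1249 and 1418 (cKO) in early polysomes, and 478 and 381 (WT) and 453 and 261 (cKO) in late polysomes, a change of -1.79 ± 0.17. These were the 2 most abundant members of the complex, and no late library reached an early one. The summed complex IV level was 7240 ± 354 in early and 2500 ± 472 in late libraries (SD, n = 4), 2.90 times higher in early, the largest ratio of the 5 complexes. Each shares some of its sequence with 1 other gene, 21.2% of the 50-base stretches of Cox6c and 25.9% of those of Cox5b.

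**Figure D4:**
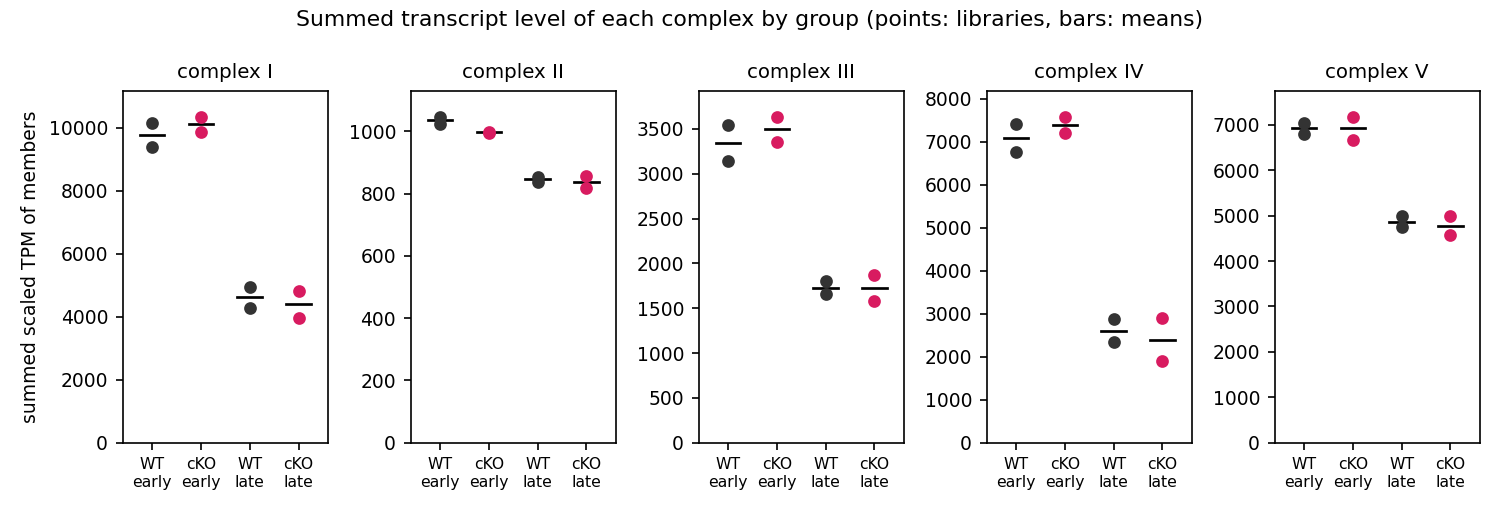
Summed level of the members of each complex (scaled TPM, axes from 0) in every library, by group, with bars at the mean of the 2 libraries. Late libraries lie below early ones in all 5 complexes, by a ratio of early to late means from 1.21 in complex II to 2.90 in complex IV.

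Several complex IV subunits exist as isoforms encoded by separate genes, and the ubiquitous form prevailed in each family by TPM. Cox4i1, a subunit involved in regulation by ATP, made up between 97.9% and 99.4% of the Cox4 family in every library. It stood at 1202, 1202, 1224 and 1171 scaled TPM in the early libraries (WT 1 and 2, then cKO 1 and 2) and 549, 409, 562 and 411 in the late ones, a change of -1.33 ± 0.13. Cox4i2, a form known from lung and from oxygen sensing, was at 7.48 and 9.71 in the early libraries of WT and 9.12 and 7.40 in those of cKO, against 5.27 and 7.71 (WT) and 6.33 and 8.77 (cKO) in late polysomes. Its libraries overlapped and rested on 17 to 33 inferred reads each, and the change of -0.24 ± 0.16 was not called (adjusted p = 0.21, limma).

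Cox6b1, which holds the dimer of complex IV together on its outer side, had the largest fall of the complex. It went from 653 and 759.8 scaled TPM (WT) and 622 and 859 (cKO) in early to 197 and 176 (WT) and 208 and 98.9 (cKO) in late libraries, a change of -2.13 ± 0.22 (adjusted p = 5.8e-05, limma). Cox6b2, known as its testis form, was at 9.15, 10.1, 16.5 and 14.7 in the early libraries (WT 1 and 2, then cKO 1 and 2) and 4.02, 3.85, 3.51 and 4.02 in the late ones, a change of -1.45 ± 0.11 on 7 to 46 reads. Of 4 testis germ cell markers, Prm2 and Ldhc were in the table and summed to at most 1.65 scaled TPM in any library. Cox6a1 made up at least 99.7% of the Cox6a family, at 579.9 and 576 scaled TPM in the early libraries of WT and 616 and 629.8 in those of cKO, against 242 and 199 (WT) and 268 and 219 (cKO) in late polysomes, a change of -1.37 ± 0.10. Cox7b, whose isoform Cox7b2 is not among the 82 genes, was at 439, 746, 623 and 688 in the early libraries (WT 1 and 2, then cKO 1 and 2). In the late ones it was at 158, 198, 217 and 169.9, a change of -1.73 ± 0.17.

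In the Cox7a family Cox7a2 held between 46.3% and 68.7% of the TPM. Its levels were 200 and 240.4 in the early libraries of WT and 189.8 and 242 in those of cKO, against 83.5 and 57.8 (WT) and 75.04 and 33.4 (cKO) in late polysomes, a change of -1.86 ± 0.24. Cox7a2l, which joins complexes III and IV into supercomplexes, was at 94.3 and 101 (WT) and 117 and 112 (cKO) in early polysomes, and 60.1 and 43.7 (WT) and 53.2 and 28.1 (cKO) in late polysomes, a change of -1.23 ± 0.18. Late libraries were below early ones for both. Cox7a1, the heart and muscle form, was at 14.3, 8.77, 12.1 and 10.7 in the early libraries (WT 1 and 2, then cKO 1 and 2) and 5.55, 0.589, 8.14 and 10.6 in the late ones. It rested on 1 to 25 inferred reads, its early and late libraries overlapped, and its average change of -1.09 ± 0.39 (adjusted p = 0.0336, limma) lost its call in 8 of 17 alternative settings. Without WT late replicate 2, the library with 1 read, it was -0.58.

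Cox8a, the ubiquitous form of a small membrane subunit, was at 465 and 424 scaled TPM in the early libraries of WT and 527 and 473 in those of cKO, against 210.3 and 171 (WT) and 217 and 161 (cKO) in late polysomes. Cox8b, a form known from heart, muscle and brown fat, was at 61.6 and 97.3 (WT) and 87.6 and 93.7 (cKO) in early polysomes, and 24.2 and 24.4 (WT) and 30.6 and 19.5 (cKO) in late polysomes. Both fell, by 1.32 and by 1.74 on the log2 scale, with no overlap between pools. Cox8b made up between 10.3% and 18.7% of the Cox8 family. Skeletal muscle markers were low, with 11 genes summing to between 15.2 and 47.3 scaled TPM, less than Cox8b alone in the early libraries, and the part of muscle or other cells in the level of Cox8b was not tested.

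Of the 17 complex V genes 15 fell and 2 rose, and both that rose belong to the F1 head of ATP synthase. The head lies in the matrix and is built from alpha and beta subunits around a central stalk of gamma, delta and epsilon. Atp5a1 (alpha) stood at 558, 472, 498 and 386 scaled TPM in the early libraries (WT 1 and 2, then cKO 1 and 2) and 1078, 1162, 1034 and 1092 in the late ones, a change of 1.20 ± 0.11. Atp5b (beta), the catalytic subunit, was at 808 and 742 in the early libraries of WT and 773 and 611 in those of cKO, against 1259.8 and 1300.3 (WT) and 1332 and 1223 (cKO) in late polysomes, a change of 0.81 ± 0.10 (adjusted p = 0.000179, limma). In contrast, Atp5c1 (gamma) changed by -0.58 ± 0.08, Atp5d (delta) by -0.85 ± 0.07 and Atp5e (epsilon) by -1.54 ± 0.21. The ratio of Atp5b to Atp5c1 levels was between 1.70 and 2.33 in the early and between 4.83 and 5.73 in the late libraries. The F1 head was the only assembly summed here with more TPM in late than in early libraries, 3001 ± 52.0 against 2366 ± 115 (SD, n = 4), since Atp5a1 and Atp5b hold most of its TPM.

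All 10 tested ATP synthase genes outside the F1 head fell, those of the membrane motor and the outer stalk. Atp5k, the small membrane subunit e that helps ATP synthase form dimers, had the largest fall of all members. It was at 560.0 and 645 scaled TPM (WT) and 443 and 829 (cKO) in early polysomes, and 222 and 133 (WT) and 153 and 72.8 (cKO) in late polysomes, a change of -2.15 ± 0.28 (adjusted p = 0.000205, limma). The early libraries lay well above the late ones and differed more between lysates than for most members. Atp5f1, Atp5h, Atp5j and Atp5o, of the outer stalk, changed by -0.77, -1.18, -1.34 and -1.13. Atp5s and Atp5sl match the symbol rule without being subunits of the finished enzyme. They changed by -0.51 and -1.09, and the call for Atp5s was lost in 9 of 17 alternative settings.

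The c subunit, which forms the rotating ring, is encoded by 3 genes that yield the same mature protein. Atp5g3 made up between 77.2% and 84.1% of their TPM. Its levels were 547, 641, 590.1 and 676 in the early libraries (WT 1 and 2, then cKO 1 and 2) and 297, 268, 292 and 204 in the late ones, a change of -1.22 ± 0.13. Atp5g1 was at 97.8 and 91.2 in the early libraries of WT and 101 and 125 in those of cKO, against 41.6 and 35.5 (WT) and 47.7 and 42.0 (cKO) in late polysomes, a change of -1.29 ± 0.09. Atp5g2 was at 36.5 and 35.7 (WT) and 35.5 and 50.7 (cKO) in early polysomes, and 14.3 and 24.0 (WT) and 19.7 and 18.1 (cKO) in late polysomes, a change of -1.03 ± 0.17. All 3 fell together, though every 50-base stretch of the Atp5g2 transcript compared is shared with other annotated genes, so its share is uncertain. That transcript has 441 bases, of which 438 are coding bases before the stop codon, so untranslated stretches of Atp5g2 were not compared. Of all members, 19 share at least 20% of their 50-base stretches with other genes, and 36 share none.

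Other genes of the pathway were also divided, with the citric acid cycle on the side opposite to most members. A chosen list of 5 genes that the symbol rule does not match (Ndufab1, Cyc1, Cycs, Ndufa4l2 and Atpif1) all fell. Cycs, cytochrome c itself, went from between 55.4 and 82.8 scaled TPM in early to between 16.9 and 22.3 in late libraries (change -1.69 ± 0.15). Cyc1, the cytochrome c1 subunit of complex III, changed by -0.70 ± 0.07. Of 45 tested assembly factors, proteins that build the complexes, 31 fell and 5 rose, with a median of -0.81. Acad9, a complex I assembly factor with 1875 coding bases, had the largest rise of these at 1.33. Of 17 genes of the mitochondrial import machinery 13 fell and 1 rose, Timm44, with a median of -1.29. Those that fell have 153 to 627 coding bases and the others 1059 to 1833. All 13 genes of the citric acid cycle rose, with a median of 0.81, the largest being Fh1, fumarate hydratase, at 1.03 ± 0.10, and they have at least 1014 coding bases. Of 10 regulators of mitochondrial biogenesis 4 fell and 2 rose. Over all tested genes 34.6% fell and 34.3% rose. Of non-member genes 94.5% of those under 300 coding bases fell, and 88.8% of those from 300 to under 600. Of those with 1000 or more coding bases 51.4% rose. The counts of these lists were not corrected for coding length.

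The study deleted Mex3a, an RNA-binding protein gene, to ask how its loss affects mRNAs on polysomes. None of the 79 tested respiratory chain genes was called between cKO and WT in either pool. In early polysomes 0 of 79 passed the adjusted threshold in limma (0.0435% of all tested genes were called), with a median difference of 0.04. There 1 member had an unadjusted p under 0.05, as did 6.64% of all tested genes. In late polysomes 0 of 79 passed (0.0124% called), with 6 at an unadjusted p under 0.05 (9.36% of all tested genes) and a median of -0.07. On lysate means, over the early and late value of a lysate, 0 of 79 passed (0.00621% called), with a median of -0.03. Here 9 members had an unadjusted p under 0.05, near the share of 11.3% over all tested genes. Voom on the inferred reads, with early and late reads of a lysate summed in the last comparison, also called 0 in each. Sustentacular cell markers (0 of 7 called by genotype) summed to 9135 and 9833 scaled TPM in WT late and 10245 and 11244.5 in cKO late libraries, and gland cell markers (0 of 5 called) to 10595 and 11187 in WT late and 13165 and 13153 in cKO late libraries. Bpifa1 held most of the gland sums in late libraries, at 6037 and 7361 (WT) and 8494 and 8952 (cKO). The gland marker Dmbt1 and the sustentacular marker Ermn were lower in cKO late libraries (-0.10 and -0.09). Mature neuron markers summed to 8257 and 8717 (WT) and 8269 and 7278 (cKO) in late libraries. In early libraries they summed to 10626 and 13044 (WT) and 11803 and 11644 (cKO). The early sums of sustentacular markers came to 6866 and 6631 (WT) and 7494 and 6677 (cKO). Those of gland markers had a lower mean in cKO, with 9844 and 7819 (WT) against 8643 and 6984 (cKO). Immature neuron markers (0 of 6 called) had lower sums in cKO, at 2345 and 2357 (WT) and 2157 and 2174 (cKO) in early libraries. In late libraries they summed to 2967 and 2800 (WT) and 2528 and 2552 (cKO). Gng8 was higher in cKO late libraries (0.17), and Gap43, Dpysl3, Stmn2, Tubb3 and Dcx were lower. Immune markers (0 of 5 called) had higher sums in cKO, at 304 and 355 (WT) and 413 and 446 (cKO) in early libraries. In late libraries they summed to 230 and 270 (WT) and 309 and 300 (cKO). There Lyz2, Cd74 and Ptprc were higher in cKO (0.55, 0.36 and 0.18), and S100a8 and S100a9 were lower (-0.08 and -0.46). The part of these cell types in the values of the members was not tested. Since the tissue was analysed in bulk, fewer cells of a type and less RNA per cell cannot be told apart. With 2 lysates per genotype, even differences several times their standard error went uncalled. Examples were Cox6b2 in early polysomes (0.64 ± 0.15, SE) and Ndufb4 in late polysomes (-0.52 ± 0.12). The 0 calls therefore do not exclude differences of such a size.

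Among the members with the smallest p in early polysomes were Cox6b2 and Ndufs7. Cox6b2, with the early values given above, was 0.64 ± 0.15 higher in cKO (adjusted p = 0.61, limma), both cKO libraries lying above both WT libraries. Ndufs7, a core subunit of complex I, was at 292 and 299.5 scaled TPM in WT early and 344 and 335 in cKO early, 0.20 ± 0.10 higher in cKO (adjusted p = 0.779). It was also above WT in both cKO late libraries, at 173 and 168 against 156 and 138.

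In late polysomes the smallest p belonged to Ndufb4, an accessory subunit of the membrane arm of complex I. It was at 14.9 and 14.7 scaled TPM in WT late and 10.7 and 9.36 in cKO late libraries, and at 39.2, 34.9, 38.0 and 36.6 in the early ones (WT, then cKO). The late difference was -0.52 ± 0.12 (adjusted p = 0.332, limma), on 12 to 85 reads per library. Ndufb4 shares 37.0% of its 50-base stretches with 3 other genes, first among them Ndufb4c, so its reads may be split between copies. Atp5d, at 528, 533, 543 and 584 in early, was at 281 and 263 in WT late and 332 and 341 in cKO late libraries, 0.31 ± 0.10 higher in cKO (adjusted p = 0.428). Cox7a1 differed by 1.68 ± 0.55 (adjusted p = 0.435), through the WT late library at 0.589 that rests on 1 inferred read. Without that library the difference was 0.66. The skeletal muscle markers summed to 20.6 and 15.2 in WT late and to 31.2 and 15.9 in cKO late libraries, and their part in the Cox7a1 difference was not tested.

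On lysate means Atp5k, Ndufa5 and Ndufs7 had the smallest p. Atp5k was 0.34 ± 0.10 lower in cKO (adjusted p = 0.38, limma), with a difference of 0.01 in early and -0.70 in late polysomes. Voom took the early and late inferred reads of each lysate summed, an unlike measure, and gave a difference of the other sign, 0.0065. Ndufa5, an accessory subunit of the matrix arm, was at 563, 622, 542 and 605 scaled TPM in the early libraries (WT 1 and 2, then cKO 1 and 2) and 219, 169, 161 and 114 in the late ones, a difference of -0.27 ± 0.09 on lysate means (adjusted p = 0.385). Its late cKO libraries lay below its late WT libraries. Ndufs7, with the values given above, was 0.21 ± 0.07 higher in cKO on lysate means (adjusted p = 0.393, limma).

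**Figure D5:**
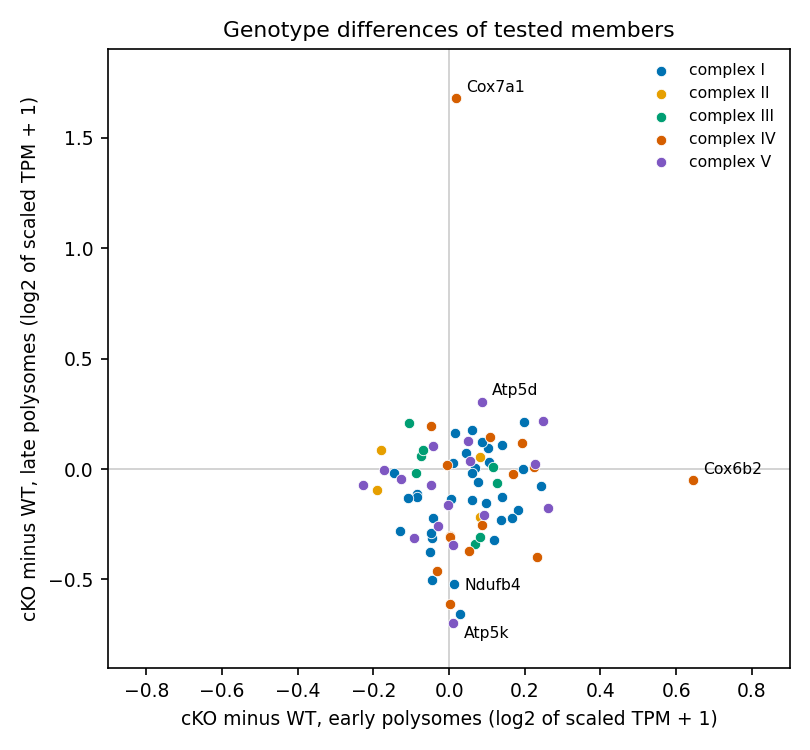
Difference between cKO and WT in early polysomes (horizontal) and in late polysomes (vertical), both as log2 of scaled TPM + 1, 1 point per gene (78 of the 79 tested), coloured by complex. Early differences run from -0.23 (Atp5a1) to 0.64 (Cox6b2) and late ones from -0.70 (Atp5k) to 1.68 (Cox7a1), and no gene was called on either axis.

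The test of whether the shift between pools differed by genotype gave no call either. For the interaction 0 of 79 members passed in limma (0.00621% of all tested genes were called), with 0 called by voom. An unadjusted p under 0.05 was reached by 3 members and by 2.85% of all tested genes. Among these members were Ndufb4 (-0.53 ± 0.16) and Cox6b2 (-0.70 ± 0.22), both with an adjusted p of 0.9997 in limma. The median interaction over the members was -0.14, with 55 negative and 24 positive, while 51.1% of all genes were negative. It was -0.34 for members with under 300 coding bases and -0.22 for the other genes of that length. Without cKO late replicate 2, the library of lowest depth, the median over all members was 0.06, and without cKO late replicate 1 it was -0.29. The 2 cKO lysates thus differed from each other by more than the genotypes did, with medians of -1.20 and -1.60 against -1.08 and -1.41 in WT.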

How the data were processed

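Polysome RNA from 8 libraries was analysed from the table of TPM that the authors deposited, with 1 column per library summing to 1000000; the submitters' processing notes name mm10, FastQC, cutadapt, STAR and DESeq2 without versions, and the counting method is not given in the sources used here. The Cre line and the values of 1 tested member, which counts among the 79, are not reported here. Groups came from the sample titles. TPM was scaled by median ratios, and log2(scaled TPM + 1) was fitted over the 16097 genes that averaged 1 deposited TPM or more, with limma 3.58.1 in R 4.3.3 (4 groups together, mean-variance trend, two-sided, Benjamini-Hochberg). Genotype was also fitted on lysate means. Fold changes on this scale understate changes of low genes. Whole reads were inferred from the TPM steps for all 19783 genes above 0 in at least 2 libraries, within a tolerance of 0.02 reads. A gene length was searched for that made the values whole, so this share alone does not show that the reads are right. The implied length lay within 2-fold of the GENCODE transcript for 89.8% of genes. The scripts were tested on simulated data. Coding lengths came from GENCODE M21, which held 98.8% of the symbols. The genes given with values in every library were, per complex, the 2 most abundant, the highest and lowest change, the isoform families, and the 3 smallest p per genotype test, as far as tested and reported here; others were chosen after their values were seen. Members, lists and tests were chosen with earlier results of these data known. Alternatives were pseudocounts of 0.1 and 0.5, other filters, TPM as deposited, quantile normalization, no trend, each library left out, replicate blocks, only the libraries compared, voom on inferred reads and a correction for coding length; the 200 nearest genes and members without shared sequence were added after seeing the data. Deviations of the early and late library of a lysate correlated at 0.086 in WT and 0.05 in cKO, and those of WT and cKO libraries of the same number at 0.331 in early and 0.142 in late polysomes.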

Additional observations from a re-analysis of the deposited data

How the results depend on the processing

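Under every alternative that kept the members tested, between 71 and 76 were called between pools, and 0 between genotypes or in the interaction. Of the 76 structural subunits 73 were called, and of the 61 members with under 20% of their 50-base stretches in another gene (chosen after seeing the data) 58. The median change from early to late of -1.34 became -0.35 when the median of non-members in the same of 10 coding length bins was taken off, and -0.30 with the 200 nearest non-members. Leaving out 1 library at a time gave 74 to 75 calls and medians of -1.43 to -1.25 on average, 71 to 74 calls and -1.37 to -1.13 in WT, and 73 to 74 calls and -1.62 to -1.21 in cKO. The genotype medians then ranged from -0.02 to 0.10 in early, -0.26 to 0.08 in late, -0.12 to 0.04 on lysate means and -0.29 to 0.06 for the interaction. With the replicate block, which pairs early and late libraries by lysate and genotypes by number, 76 members were called on average, 74 in WT, 74 in cKO and 0 in each genotype test, so that it changed no count. Signs turned for Sdhb in cKO with quantile normalization (0.00998). They also turned for Cox4i2 in cKO without cKO early replicate 1 (0.01) or cKO late replicate 1 (its range over the libraries left out being -0.33 to 0.084). For Atp5k the sign turned with voom (0.0065), which took the summed reads of a lysate in place of the mean of its early and late values. The cause of these turns was not tested. The Sdhb call in cKO was lost in 7 settings. Levels near 1 read, as for Cox7a1, are limited by depth.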
